A study of Drosophila melanogaster with 6 samples.

Results

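In Drosophila melanogaster S2 cells, 1320 sites on the chromosome arms 2L, 3L and 3R carried a ROW peak and a BEAF-32 peak whose points of highest signal, the summits, lay at most 100 bp apart. These coinciding sites were chosen by position from the authors' 2 deposited peak lists: the intervals had to overlap by at least 1 bp and the summits had to lie within that distance. They made up 57.4% of the 2300 overlapping pairs on these arms. The other 980 pairs overlapped with summits farther apart and are called offset pairs here. The coinciding sites used 25.8% of the 5115 ROW and 47.7% of the 2767 BEAF-32 peaks found there, and no peak belonged to more than 1 coinciding site. Over all sequences the lists held 8788 ROW peaks, 4781 BEAF-32 peaks and 3908 overlapping pairs. Overlap and summit distance are what the sites were chosen on, so these counts and distances are descriptions.

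BEAF-32, the boundary element associated factor, is an insulator protein that binds clusters of the CGATA motif. In flies it is known from the borders of chromatin domains and from the promoters of housekeeping genes, many of them arranged head to head. ROW, named as a relative of the protein WOC, is a zinc-finger protein with AT-hooks, short segments that contact the minor groove of AT-rich DNA. It is found in a complex with WOC and the heterochromatin protein HP1c, which sits in euchromatin at active genes.

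The study immunoprecipitated chromatin of sonicated nuclei from S2 cells, a cultured embryonic line with features of blood cells, with 1 of 2 antibodies. Each antibody was used on 3 samples, and no genotype, treatment or time separates them. All 6 titles carry the tag con, which the labels do not explain. Each antibody has 1 list for its 3 samples, so the spread between samples is unknown, read depth is unknown, and no test over samples could be made. Differences are therefore given with 95% intervals that cover the spread over peaks only, treat peaks as independent, and are not tests of a biological effect. Strength means the fold enrichment of signal over local background at the summit, as the authors deposited it, and was used only within the list of its own antibody. Positions are on the genome build dm3, counted from 1, and no gene was assigned to a site.

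Within the coinciding sites the summits were spread over the whole permitted distance, with more pairs at the smallest distances. The median distance was 46 bp (interquartile range 23 to 72). In 718 sites the summits were at most 50 bp apart, in 304 at most 20 bp and in 181 at most 10 bp. Distances of 0 to 9 bp occurred in 171 sites, whereas the following steps of 10 bp up to 89 bp held between 119 and 141 sites each. The last stretch, 90 to 100 bp, held 106. At 10 sites both summits fell on the same base, 5 of them on 3L, 4 on 3R and 1 on 2L. Beyond the limit the number of pairs fell away without a gap: 227 pairs lay 80 to 99 bp apart, 166 lay 100 to 119 bp apart, 84 lay 140 to 159 bp apart and 43 lay 200 to 219 bp apart. The limit of 100 bp thus divides a continuous range of distances.

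**Figure D1:**
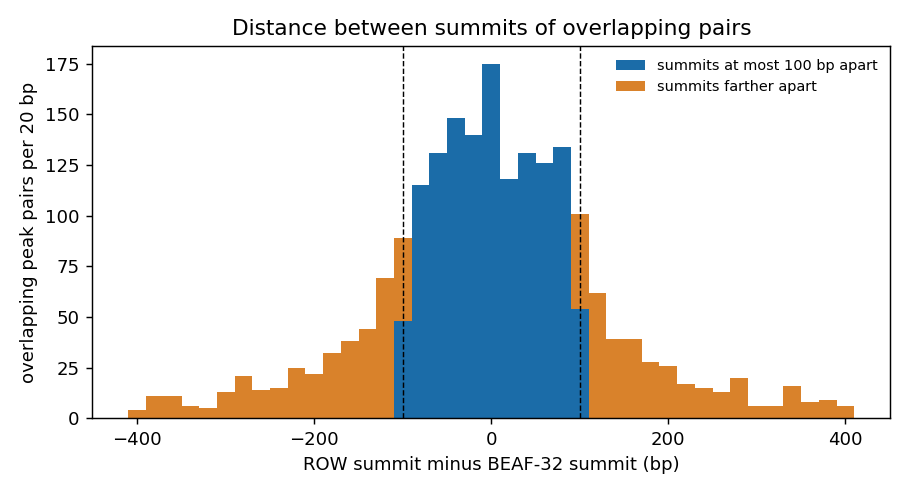
Number of overlapping pairs (y axis, per 20 bp) by the signed distance from the BEAF-32 to the ROW summit (x axis, bp), stacked for coinciding (blue) and offset (orange) pairs; pairs more than about 400 bp apart are not drawn. The counts are highest around 0, similar on both sides, and decline without a gap across the dashed limits at 100 bp.

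The ROW summit had no preferred side. It lay at the higher coordinate in 644 of the 1310 sites with separate summits, a share of 49.2% (95% Wilson interval 46.5 to 51.9). In offset pairs the share was 49.6% (46.5 to 52.7). Sides refer to the chromosome coordinate and not to the direction of a gene.

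On both sides of the limit the strengths covered wide, overlapping ranges. The 101 sites in the last 10 bp inside had a median ROW strength of 7.97 and a median BEAF-32 strength of 14.7. The 91 pairs in the first 10 bp outside had medians of 6.39 and 9.55. The 9 sites with summits exactly 100 bp apart had ROW strengths of 2.46 to 20.02 (median 11.2) and BEAF-32 strengths of 2.07 to 28.5 (median 18.4). The 13 pairs just outside, at 101 bp, had ROW strengths of 2.35 to 11.3 (median 6.39) and BEAF-32 strengths of 2.93 to 30.4 (median 19.4). The ranges overlapped for both proteins. One of the best ranked pairs just inside the limit lay on 3R, with ROW at 11.2-fold from base 1614653 to 1615325 and BEAF-32 at 20.6-fold. The other lay on 3L, with ROW at 13.6-fold from base 12131422 to 12132841 and BEAF-32 at 18.4-fold. The best ranked pair just outside lay on 3R, with ROW at 11.2-fold from base 14099855 to 14100640 and BEAF-32 at 25.03-fold, and the next on 3L, with ROW at 10.1-fold from base 19611349 to 19612214 and BEAF-32 at 23.2-fold.

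At the limit of 100 bp, coinciding sites had stronger BEAF-32 peaks and weaker ROW peaks than offset pairs. BEAF-32 strength at coinciding sites ran from 1.82 to 33.5 with a median of 10.2 (interquartile range 4.49 to 21.5), against a median of 6.52 (3.23 to 17.0) at offset pairs. The log2 difference of the medians was 0.64 (95% interval 0.43 to 0.85). With a limit of 50 bp it was 0.18 and its interval (-0.13 to 0.45) reached below 0. ROW strength ran from 1.61 to 28.3 with a median of 5.42 (3.31 to 10.2), against 7.21 (3.90 to 11.5) at offset pairs, a log2 difference of -0.41 (-0.54 to -0.28). Both distributions overlapped widely between the groups. Against the full lists on the same arms, which had median strengths of 4.12 (ROW) and 7.42 (BEAF-32), the coinciding sites were higher for both proteins.

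**Figure D2:**
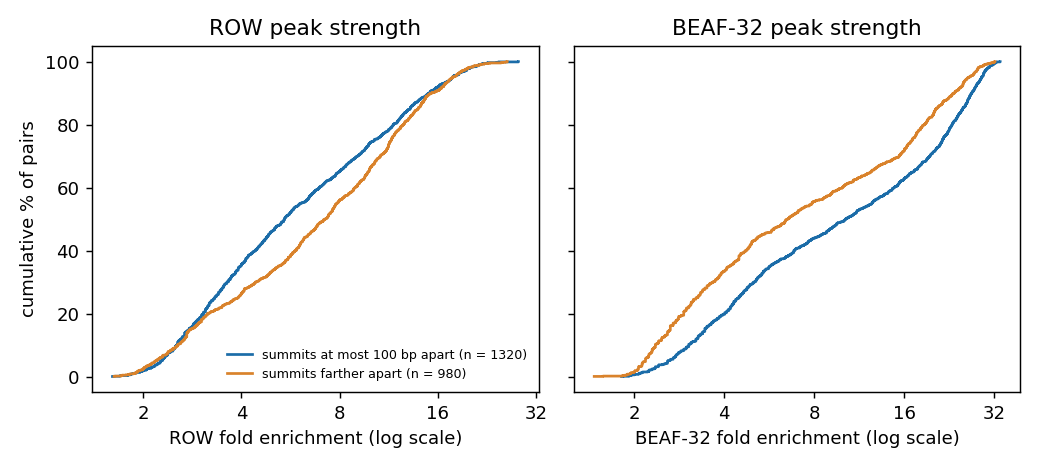
Cumulative share of pairs (y axis, %) by fold enrichment (x axis, log scale) of the ROW peak (left) and the BEAF-32 peak (right), for 1320 coinciding (blue) and 980 offset (orange) pairs. The blue curve lies to the left of the orange one for ROW over the middle of the range and to the right for BEAF-32, with medians of 5.42 against 7.21 and 10.2 against 6.52.

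The strongest peaks showed the same contrast for BEAF-32 and little for ROW. BEAF-32 peaks of at least 16-fold, which are 30.5% of that list on these arms and 33.4% of the overlapping pairs, were present at 491 coinciding sites, or 37.2% (34.6 to 39.8), and at 278 offset pairs, or 28.4% (25.6 to 31.3). ROW peaks of at least 16-fold are 5.04% of the ROW list and 8.48% of the overlapping pairs. They were present at 105 coinciding sites, or 7.95% (6.61 to 9.54), and at 90 offset pairs, or 9.18% (7.53 to 11.2). The intervals of both ROW shares overlap. Both peaks reached 16-fold at 47 coinciding sites, 3.56% of them, and at 37 offset pairs, 3.78%.

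BEAF-32 strength at coinciding sites had 2 maxima. In steps of 0.5 on the log2 scale, 197 sites fell between 4 and 5.66-fold, the number dropped to 117 between 8 and 11.31-fold, and it reached 280 between 22.63 and 32-fold. Offset pairs had 173 sites between 2 and 2.83-fold, 74 between 8 and 11.31-fold and 167 between 16 and 22.63-fold. ROW strength at coinciding sites was highest in number between 2.83 and 4-fold, with 261 sites, and only 6 sites exceeded 22.63-fold.

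The strength of BEAF-32 was not highest where the summits were closest. Median BEAF-32 strength was 9.16 for summits 0 to 25 bp apart (370 sites), 9.48 for 26 to 50 bp (348 sites), 10.9 for 51 to 75 bp (319 sites) and 12.0 for 76 to 100 bp (283 sites). Outside the limit it was 8.83 at 101 to 200 bp, 5.37 at 201 to 400 bp and 4.90 beyond. ROW strength rose with distance in the same 4 classes of coinciding sites, from a median of 4.46 through 5.35 and 5.78 to 6.92, and was 7.39, 7.54 and 6.65 in the 3 classes outside. Spearman's rho between distance and strength across the 1320 sites was 0.15 for ROW and 0.07 for BEAF-32. The BEAF-32 medians of all 3 outer classes were below those of the 4 coinciding classes, and the size of the gap depended on which offset pairs were counted. Against offset pairs of at most 300 bp alone, the log2 difference in BEAF-32 strength was 0.33 (0.04 to 0.60). It was 0.16 (-0.08 to 0.41) among pairs in which both intervals shared at least 50% of their length, and 0.21 (-0.03 to 0.47) with a −log10 q of at least 10 for both peaks.

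Peaks at coinciding sites were narrower than those of offset pairs. The median ROW width was 608 bp (interquartile range 474 to 751) against 780 bp (623 to 1059), a difference of -172 bp (95% interval -204 to -150). The median BEAF-32 width was 572 bp (442 to 655) against 627 bp (471 to 801), a difference of -55 bp (-72.2 to -38.4). With both widths in the interquartile range of their list, the differences were -35 bp (-60.6 to -20.6) for ROW and 11 bp (-7.38 to 23.7) for BEAF-32, the latter in the other direction. The full lists on these arms had median widths of 575 bp (ROW) and 565 bp (BEAF-32), so coinciding peaks were not narrow for their lists. A narrow interval leaves less room for distant summits, so width and the rule are not independent. Of the pairs in the lowest quartile of ROW width, 278 to 525 bp, 76.9% (73.3 to 80.2) coincided. It was 68.8% from 526 to 671 bp, 49.8% from 672 to 891 bp, and 33.9% (30.2 to 37.9) in the highest, 892 to 2894 bp. For BEAF-32 width the shares were 61.2%, 65.7% and 65.04% in the 3 lower quartiles and 37.6% (33.7 to 41.6) in the highest, above 700 bp.

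Whether ROW was weaker at coinciding sites among peaks of like width depended on how width was held. With both peaks in the interquartile range of width of their list, the log2 difference in ROW strength was -0.36 (-0.63 to -0.05) and that in BEAF-32 strength was 0.91 (0.56 to 1.20). Within quartiles of ROW width ROW was weaker in only 1 of the 4 classes, with an interval that reached above 0. BEAF-32 strength was higher in all 4 classes of BEAF-32 width, with intervals above 0 in 3 of them. With the width of the other protein held instead, BEAF-32 was stronger and ROW weaker in all 4 classes. Some of the intervals of each protein reached across 0 there. The quartile classes were added after the data were seen. In the lowest quartile of ROW width the coinciding sites had a median ROW strength of 3.14 and the offset pairs 2.72, a log2 difference of 0.21 (0.11 to 0.33), opposite to that over all widths. The differences were 0.20 (-0.08 to 0.41), -0.05 (-0.37 to 0.16) and 0.03 (-0.16 to 0.21) in the 3 wider classes. In the lowest quartile of BEAF-32 width the log2 difference in BEAF-32 strength was 0.32 (0.20 to 0.45). It was 0.69 (0.44 to 1.04) from 451 to 590 bp, with medians of 10.7 and 6.60, and 0.66 (0.38 to 1.09) from 591 to 700 bp, with medians of 22.9 and 14.5. In the widest class it was 0.21 (-0.04 to 0.48). By ROW width the BEAF-32 difference was 0.86 (0.39 to 1.22) in the narrowest class and 0.89 (0.44 to 1.28) in the widest. Between them it was 0.37 (-0.14 to 0.80) from 526 to 671 bp and 0.34 (-0.29 to 0.93) from 672 to 891 bp. By BEAF-32 width the ROW difference was -0.10 (-0.38 to 0.23) in the narrowest class and -0.01 (-0.30 to 0.24) in the widest. Between them it was -0.50 (-0.82 to -0.31) from 451 to 590 bp and -0.44 (-0.66 to -0.19) from 591 to 700 bp. Spearman's rho between ROW width and ROW strength was 0.56 at coinciding sites and 0.22 at offset pairs.

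**Figure D3:**
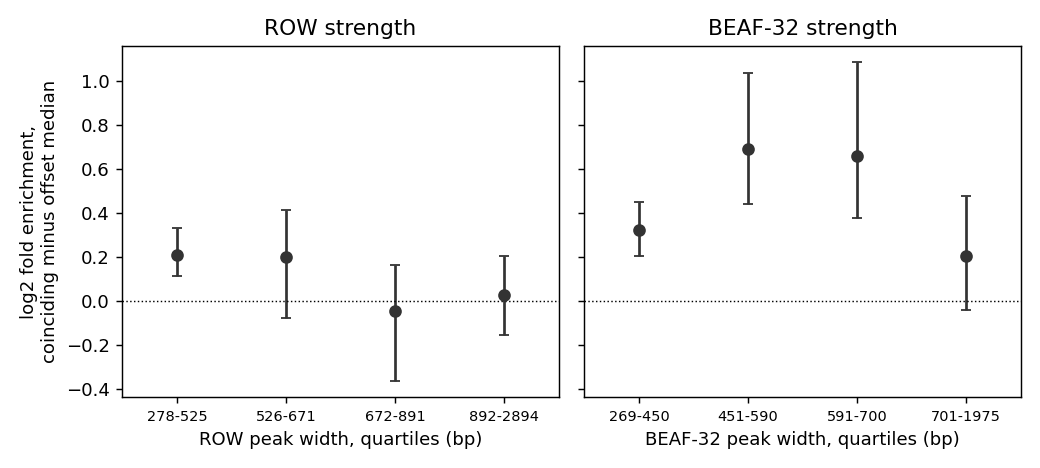
Difference in median log2 fold enrichment, coinciding minus offset pairs (y axis), within quartiles of peak width (x axis, bp) for ROW (left) and BEAF-32 (right); bars are 95% intervals over peaks. The ROW differences lie between -0.05 and 0.21, and the BEAF-32 differences are above 0 in all 4 classes, with the interval of the widest class reaching below 0.

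Overlapping pairs coincided more often with stronger BEAF-32 peaks, and, where BEAF-32 was strong, less often with stronger ROW peaks. Each list was divided into quartiles of strength on the 3 arms, with limits of 2.63, 4.12 and 8.09-fold for ROW and 3.68, 7.42 and 18.3-fold for BEAF-32. Where a BEAF-32 peak of the highest quartile overlapped a ROW peak of the lowest, 39 of 44 pairs coincided, or 88.6% (76.02 to 95.05). Where both peaks belonged to the highest quartile, 171 of 288 coincided, or 59.4% (53.6 to 64.9). The opposite case, a ROW peak of the highest quartile over a BEAF-32 peak of the lowest, gave 71 of 167, or 42.5% (35.3 to 50.1). Pairs weak in both lists coincided in 41 of 98 cases, or 41.8% (32.6 to 51.7), so with the weakest BEAF-32 peaks the share did not fall with ROW strength. With BEAF-32 peaks of the second quartile it was 62.3%, 65.3% and 63.2% over the 3 lower ROW quartiles and 48.3% in the highest. Within each ROW quartile the share was lowest with the weakest BEAF-32 peaks and highest with the strongest. Median ROW width was 354.5 bp in the class with 88.6% and 729 bp where both peaks were in the highest quartile. From the weakest to the strongest BEAF-32 peaks, this width went from 505.5 to 354.5 bp for the lowest ROW quartile. The shares there were 41.8% and 88.6%. For the second ROW quartile the widths were 621 and 490.5 bp and the shares 50.8% and 82.8%. For the third they were 761 and 687 bp and 41.7% and 65.5%. For the highest they were 739 and 729 bp and 42.5% and 59.4%. The part of ROW width in the result was not tested beyond the width classes above.

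**Figure D4:**
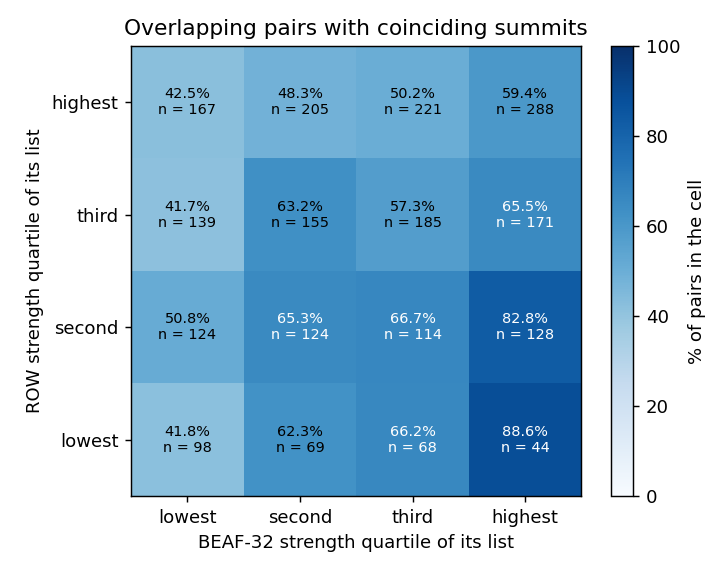
Share of overlapping pairs with coinciding summits (colour and %, with the number of pairs n) by the quartile of BEAF-32 strength (x axis) and of ROW strength (y axis) in each list on 2L, 3L and 3R. The share runs from 41.7% to 88.6% and is highest where a strong BEAF-32 peak met a weak ROW peak.

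By composition, coinciding sites held peaks of every strength. Of the 1320 sites, 452 (34.2%) had a ROW peak of the highest quartile and 168 (12.7%) one of the lowest, against 43.8% and 11.3% of offset pairs. For BEAF-32, 428 sites (32.4%) were in the highest quartile and 233 (17.7%) in the lowest, against 20.7% and 30.1% of offset pairs. The strengths of both proteins were loosely related: Spearman's rho was 0.10 across 1320 coinciding sites and 0.24 across 980 offset pairs. Widths showed the reverse order, with a rho of 0.39 and 0.18. These correlations are over pairs that share 2 lists, and no test was made.

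The intervals of coinciding sites were often nested. The ROW interval held the whole BEAF-32 interval at 449 sites, or 34.0% (31.5 to 36.6), and the BEAF-32 interval held the ROW interval at 318, or 24.1% (21.9 to 26.5). In offset pairs these shares were 30.0% and 12.3%. Intervals chosen for close summits nest more readily, so these shares also depend on the rule. The shared stretch had a median length of 483 bp at coinciding sites, which was 86.6% of the ROW and 93.7% of the BEAF-32 interval. The midpoints of the intervals lay a median of 46.5 bp apart (interquartile range 21.5 to 91.5), against 120 bp (60.5 to 265) in offset pairs. The rule did not use midpoints, but summits mostly sat near them, so midpoint distance is not independent of the rule. At 1319 of 1320 sites both summits fell inside the shared stretch, and this was so for 71.0% of offset pairs. Summits chosen to be close fall inside both intervals more readily, so this contrast also depends on the rule. Summits sat near the middle of their interval. At coinciding sites the ROW summit lay a median of 49.0% of the way along its interval (interquartile range 42.5 to 56.5) and the BEAF-32 summit 49.9% (44.0 to 55.5). The medians of offset pairs were 49.1% and 50.3%, with wider interquartile ranges of 38.1 to 60.2 and 38.2 to 61.9. Only 23 coinciding sites, 1.74% of them, had a peak that also overlapped a further peak of the other antibody, against 6.43% of offset pairs.

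The sites that ranked best for both proteins lay on all 3 arms. The first, on 3L with ROW from base 19837939 to 19838663, had a ROW strength of 19.97 and a BEAF-32 strength of 29.6, with the summits 37 bp apart. The BEAF-32 interval of 635 bp lay wholly inside the ROW interval of 725 bp there. The next, on 3R with ROW from base 20702059 to 20702933, had strengths of 19.8 and 29.5 and summits 19 bp apart, again with BEAF-32 nested in ROW. The third lay on 2L with ROW from base 17410193 to 17410845, at 17.8 and 31.0-fold and 87 bp apart. It was followed by a site on 3L from base 6481370 to 6481994, at 22.7 and 28.4-fold, and one on 3R from base 7835981 to 7836660, at 22.6 and 28.1-fold with summits 97 bp apart. The best ranked sites thus included distances from 16 to 97 bp. None of the named sites has a replicate check.

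The strongest single peaks had partners of very different strength. Of the 105 coinciding sites with a ROW peak of at least 16-fold, 47 also had a BEAF-32 peak of at least 16-fold. Over all coinciding sites such a BEAF-32 peak was present at 491 of 1320, or 37.2%, a smaller share. No interval was computed for the share among the 105. The strongest ROW peak, on 3R from base 11054963 to 11055549 at 28.3-fold, held a BEAF-32 peak of only 2.42-fold and 270 bp, the 1272nd of 1320 by BEAF-32 strength. The second, on 3L from base 1645031 to 1645679 at 24.6-fold, held one of 3.22-fold. The third, on 3R from base 19598374 to 19598986 at 24.4-fold, held one of 15.2-fold. In the other direction, the strongest BEAF-32 peak, on 2L from base 19508397 to 19509064 at 33.5-fold, held a ROW peak of 3.44-fold and 393 bp. The BEAF-32 peaks that followed, both on 3L, had ROW strengths of 11.6, with ROW from base 11986065 to 11986727, and 14.7, with ROW from base 9696905 to 9697635. At the 3 sites with the strongest ROW peaks the BEAF-32 interval lay wholly inside the ROW interval. At the 2L site with the strongest BEAF-32 peak the ROW interval lay wholly inside the BEAF-32 interval.

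Sites with the largest difference in rank repeated this geometry. On 3L, a ROW peak from base 20133550 to 20134439 reached 20.02-fold over a BEAF-32 peak of 2.07-fold, with the summits 100 bp apart. Also on 3L, a ROW peak from base 205636 to 206299 reached 19.4-fold over one of 2.42-fold. The widths were 890 and 664 bp for these ROW peaks and 449 and 324 bp for the BEAF-32 peaks inside them. Strong BEAF-32 over weak ROW was seen on 3R, where ROW from base 12030922 to 12031223 had 2.11-fold and BEAF-32 29.5-fold. On 2L, ROW from base 2375747 to 2376075 had 1.88-fold and BEAF-32 28.0-fold, and ROW from base 357725 to 358051 had 2.46-fold and BEAF-32 31.3-fold. These 3 ROW peaks were 302, 329 and 327 bp wide, and each lay wholly inside a BEAF-32 peak of 609 to 680 bp.

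The 10 sites with both summits on one base were of mixed strength. Their ROW strengths ran from 2.56 to 21.7 (median 6.10) and their BEAF-32 strengths from 2.35 to 24.8 (median 4.17). The best ranked lay on 3L, with ROW from base 1639119 to 1639888, summits at base 1639549, a ROW strength of 21.7 and a BEAF-32 strength of 24.8. A site on 3L with summits at base 1083487 had strengths of 11.6 and 19.1, and one on 3R at base 19200856 had 7.77 and 13.3. A site on 3L at base 18675161 was strong in ROW, at 16.8-fold, and weak in BEAF-32, at 4.03-fold. One on 3R at base 2208583 paired a ROW strength of 3.83 with a BEAF-32 strength of 21.5. In 9 of the 10 the BEAF-32 interval lay inside the ROW interval, and the last one was the exception.

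Coinciding sites were present at similar density on the 3 arms. There were 377 on 2L, 418 on 3L and 525 on 3R, which is 16.4, 17.1 and 18.8 per Mb of the stretch that held peaks. They made up 56.2% (52.4 to 59.9), 56.3% (52.7 to 59.9) and 59.2% (55.9 to 62.4) of the overlapping pairs, with intervals that overlap. Median ROW strength was 5.31, 4.84 and 5.82, and median BEAF-32 strength 8.97, 9.24 and 11.6. ROW was weaker at coinciding than at offset pairs on each arm, with offset medians of 7.54, 6.36 and 7.57. BEAF-32 was stronger on each arm, with offset medians of 6.98, 5.55 and 7.04. On 2L alone the log2 difference in BEAF-32 strength was 0.36 and its interval (-0.16 to 0.78) reached below 0.

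Along the arms the coinciding sites were unevenly spaced. The median distance from one to the next was 22.3 kb (interquartile range 7.84 to 64.3) while the mean was 57.0 kb, and the shortest distance was 973 bp. The next site lay within 10 kb in 31.5% of cases (29.1 to 34.1) and more than 100 kb away in 16.6%. Offset pairs were fewer and their spacing was wider, with a median of 35.7 kb and 21.0% within 10 kb. All overlapping pairs together, which are more numerous, had a median of 12.0 kb and 44.4% within 10 kb. A smaller number by itself widens spacing, and its part in these differences was not tested. Relative to the mean spacing on the same arm, the median was 0.39 for coinciding sites, 0.47 for offset pairs and 0.36 for all overlapping pairs together. Coinciding and offset pairs were mixed along the arms. After a coinciding site the next overlapping pair coincided in 58.8% of cases (56.1 to 61.4), and after an offset pair in 55.5% (52.3 to 58.6), around the share of 57.4% over all pairs. The nearest other ROW summit was a median of 3796 bp from a coinciding site and 3999 bp from an offset pair. For BEAF-32 these medians were 5611 and 6003 bp.

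**Figure D5:**
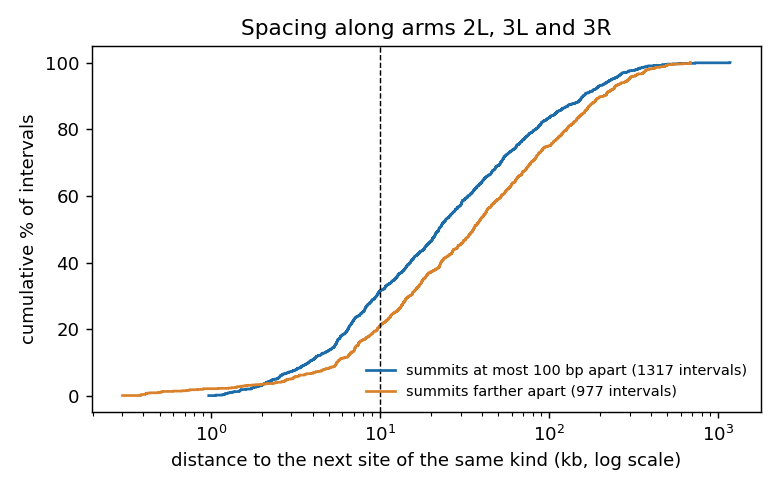
Cumulative share of intervals (y axis, %) by the distance to the next site of the same kind on the arm (x axis, kb, log scale) for coinciding (blue) and offset (orange) pairs; the dashed line marks 10 kb. At 10 kb the curves stand at 31.5% and 21.0%, and the medians are 22.3 and 35.7 kb. The groups differ in number, which by itself shifts the curves, and how far was not tested.

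When sites at most 10 kb apart were joined, 623 of the 1320 stood alone and 697 fell into 282 groups. Of these groups 196 had 2 sites, 57 had 3 and 29 had 4 or more, up to 7. No such grouping is given for offset pairs or for all overlapping pairs. Grouping is therefore not shown to be particular to coinciding sites. Grouped and lone sites had median BEAF-32 strengths of 10.3 and 10.1, and median ROW strengths of 5.82 (95% interval 5.42 to 6.43) and 4.93 (4.67 to 5.40). There were 3 groups of 7. The most compact lay on 2L from base 13366022 to 13387740 and spanned 21.7 kb. Its first site had strengths of 10.8 (ROW) and 6.75 (BEAF-32), and its last had 18.4 and 16.8. Over its 7 sites ROW ran from 3.52 to 18.4-fold (median 10.5) and BEAF-32 from 2.08 to 16.8-fold (median 3.22), with summits 20 to 83 bp apart. The other groups of 7 lay on 3R from base 7233224 to 7263701 and on 2L from base 1142661 to 1177940.

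The longest stretch without a coinciding site was also on 2L. It ran for 1177 kb between a site with ROW from base 13833018 to 13833348, with strengths of 2.89 (ROW) and 5.20 (BEAF-32), and a site with ROW from base 15009601 to 15010148, at 10.2 and 29.0-fold. The stretch held 34 ROW peaks, 6 BEAF-32 peaks and 5 offset pairs. That is 28.9 ROW and 5.10 BEAF-32 peaks per Mb, against 67.3 and 35.0 per Mb over the arm. The stretch was picked for holding no coinciding site, and such sites used 24.4% of the ROW and 46.8% of the BEAF-32 peaks on 2L. Lower densities are therefore partly built into the choice. Read depth along the arm is unknown, so fewer called peaks and less binding cannot be told apart there.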

How the data were processed

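Chromatin immunoprecipitation and sequencing was done on S2 cells with a ROW or a BEAF-32 antibody, 3 samples each, grouped by title; the labelled antibody of the BEAF-32 samples counts upward and was not used. Bowtie2, SAMtools, MACS2, deepTools and the build dm3 are named in the submitters' processing notes without roles or versions. Pooling and the control library are not given in the sources used here. The authors deposited 1 headerless narrowPeak list per antibody. The ratio in column 7 as deposited was read as fold enrichment at the summit, column 9 as deposited as −log10 q, and column 10 as the summit's distance from the peak start. The score the authors deposited in column 5 was not used.

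Overlaps, medians and shares were computed with pandas 2.3.3, numpy 2.4.6 and scipy 1.17.1 under Python 3.11.15, for 2L, 3L and 3R only. Medians have 95% binomial order-statistic intervals, combined for differences by the square-and-add rule, and shares have 95% Wilson intervals; both cover counting error over peaks. Pair finding was tested with an artificial ROW list, made by shifting copies of the BEAF-32 peaks by known distances. Their strengths varied at random around a set level, which was higher for copies with summits beyond the limit. The test required the set distances to come back exactly and the set strength difference closely. Each copy kept the width of its BEAF-32 peak, so pairs of unequal width were not tested. The sites, the limits and the comparisons were chosen with earlier results of these data known. Named sites are the 5 with the smallest rank sum, the 3 strongest for each protein, the 5 best ranked on one base, the 3 with the largest rank difference each way, 2 on each side of the limit, and the ends of the longest group and of the longest stretch without a coinciding site. The groups of 7 other than the first were named after their values were seen. No genome or annotation of dm3 was used here, so no motif was searched.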

Additional observations from a re-analysis of the deposited data

How the results depend on the processing

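No paired analysis was possible because the lists hold no values of single samples, and single samples could not be left out. Of 106 recalculations of 10 results, 62 stayed within the interval of the reported value (for the count of sites, within 1.5 times), 40 moved beyond it and 4 changed sign; the cause was not tested unless stated. With summits at most 50 bp apart there were 718 sites, BEAF-32 strength differed by 0.18 (log2, interval -0.13 to 0.45), ROW width by -122.5 bp, rho over the pairs outside was 0.18, and spacing was 54.2 kb with 15.9% within 10 kb. With 200 bp the differences were -0.26 for ROW and 0.92 for BEAF-32 strength and -294 and -92 bp for their widths, with a spacing of 16.1 kb and 37.4% within 10 kb; a wider limit adds sites by construction. With a −log10 q of at least 10 the BEAF-32 differences were 0.21 and -80 bp, the offset rho was 0.16 and spacing 25.6 kb. With 50% overlap of both intervals strength differed by -0.56 for ROW and 0.16 for BEAF-32 and width by -144 and -102 bp, with a spacing of 24.98 kb and 28.8% within 10 kb. Single arms had 377, 418 and 525 sites, fewer by construction, and on 2L the BEAF-32 differences were 0.36 and -38 bp. With both widths in the interquartile range of their list, strength differed by -0.36 for ROW and 0.91 for BEAF-32, ROW width by -35 bp and BEAF-32 width by 11 bp, a change of sign, and rho was 0.022 at coinciding and 0.049 at offset pairs. With −log10 q as strength the log2 differences were -1.29 and 1.59, on another scale. Against offset pairs of at most 300 bp, BEAF-32 strength differed by 0.33 and ROW width by -95.5 bp. Within quartiles of ROW width, added after seeing the data, ROW strength differed by 0.21, 0.20 and 0.027, each a change of sign, and by -0.048 in the third; within BEAF-32 width quartiles, BEAF-32 strength differed by 0.32 in the narrowest and 0.21 in the widest. Sites with the next within 5 kb made up 13.6%, and within 20 kb 46.3%.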
